A study of Mus musculus with 6 samples.

Results

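The fibroblasts of the postnatal day 12 (P12) mouse cerebral cortex numbered 186 cells, 88 in the Nodal control library and 98 in the Nodal iPCKO library, among 67751 barcodes of the 6 single-cell libraries that passed the same limits of depth and mitochondrial content. A barcode counted as a fibroblast when it had at least 1500 UMIs (unique molecular identifiers, 1 for each captured transcript), at most 17% of them mitochondrial, and a UMI of at least 4 of the 7 genes Col1a1, Col1a2, Col3a1, Dcn, Lum, Pdgfra and Slc6a13. Col1a1 or Dcn also had to reach 3 UMIs, and the 6 genes Kcnj8, Myh11, Cldn5, Tie1, Aqp4 and P2ry12, which mark pericytes, smooth muscle, endothelium, astrocytes and microglia, could hold at most 2 UMIs together. Levels of these rule genes are therefore given as a description.

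Fibroblasts of the brain reside in the meninges, the pia, arachnoid and dura that enclose it, and in the perivascular space around the larger vessels that enter the cortex. They deposit collagen and the basement membrane at the brain surface. Meningeal fibroblasts are also known for organic solute transporters, for the synthesis of retinoic acid and for transcription factors such as Foxc1 and Zic1, which meningeal development requires.

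Control mice were Nodal lox/lox and carried no CreERT2 transgene, whereas Nodal iPCKO mice carried the same floxed alleles together with Pdgfrb(BAC)-CreERT2, which is active in mural cells and other cells with Pdgfrb. The tamoxifen schedule was the same for all animals, 50 µg on each day from P1 to P3. Cortices of 2 mice of a genotype were pooled into 1 BD Rhapsody whole-transcriptome library after the meningeal layers had been stripped off, so no value has a replicate and effects of the deletion, the transgene, the mice and the dissection cannot be told apart. The sex of the animals is not given. The other 4 libraries were made from P21 lungs of Bdnf lox/lox, Bdnf iPCKO, Hgf lox/lox and Hgf iPCKO mice.

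Fibroblasts made up 88 of 3015 barcodes in the control (2.92%, exact binomial 95% interval 2.35 to 3.58) and 98 of 4750 in the iPCKO cortex (2.06%, 1.68 to 2.51). These intervals, like all others between the 2 cortex libraries, cover counting error only. The spread of this share between cortices of a genotype and the amount of meningeal tissue left by each dissection were not tested. Fibroblasts were deep cells, with medians of 13779 and 12876 UMIs against 7917 and 8012.5 in the other barcodes (control first, here and below), and they held 1245777 and 1312975 UMIs in all. UMIs of the 6 excluding genes were present in 20 and 20 of the fibroblasts. For having 3 markers alone, 1 and 3 barcodes failed, while 22 and 24 fibroblasts had exactly 4 and 37 and 41 had all 7. Depth removed 11 and 9 otherwise matching barcodes, the deepest at 1375 and 1397 UMIs, and mitochondrial content removed 6 and 17, the lowest at 17.5 and 17.2%. A further 2 and 10 were left out for markers of other cell types, at 3 to 28 and 3 to 31 UMIs.

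Levels of the genes that chose the cells are no check of the label. Every cell of both libraries had a Col1a1, Col1a2 and Dcn UMI. Col1a1 was at 7626 and 5603 CPM (counts of UMIs scaled to the total of the summed cells). It was found in 2.69 and 1.05% of microglia-like cells, at 4.05 and 1.59 CPM. Microglia-like cells were chosen with at most 2 UMIs over Col1a1, Dcn and the first marker of each other cell type. Their Col1a1 level is therefore no background. Barcodes under 100 UMIs, taken as barcodes without a cell, held 251 and 135 CPM of Col1a1. Slc6a13, a GABA and taurine transporter, had a UMI in 48 of 88 and 50 of 98 fibroblasts, and Lum, a small proteoglycan, in 47 and 47. Kcnj8 and Myh11 were held low by the rule. Of markers that the rule did not use, no cell had a UMI of Cnn1, Pln, Cd163, Olig2 or Sox10. Summed levels of the marker lists were 129 and 126 CPM for smooth muscle, 51.4 and 35.8 CPM for endothelium, 282 and 206 CPM for microglia and 6.42 and 14.5 CPM for neurons. The pericyte list, at 2067 and 1356 CPM, and the astrocyte list, at 1907 and 1810 CPM, stood higher, with the pericyte gene Art3 at 0 in the control and Higd1b at 0 in the iPCKO library. Vtn gave 2036 and 1311 CPM of the pericyte sum, whereas Rgs5, the most abundant gene of the list in pericyte-like cells, was at 18.5 and 15.2 CPM. Gja1, at 1504 and 1513 CPM, and Slc1a3, at 353 and 274 CPM, made up most of the astrocyte sum, and Gfap was at 0 in the iPCKO library. The list of border macrophages was at 79.5 and 12.9 CPM, and a single control cell held 82 of its UMIs together with 114 microglial UMIs. Scrublet called 1 and 0 of the fibroblasts doublets, and 2 and 0 carried a cell barcode that occurred in both cortex libraries.

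Fibroblasts of both libraries fell into a pair of classes. Each cell was placed by the UMIs of a dural marker list (with Fxyd5, Alpl, Mgp, Ccn3, Dkk2, Foxp2 and Matn4) as a share of those of this list and of a pial and a perivascular list together, divided at 50%. Cells below the division are called Col15a1-high and cells above it Mgp-high, by a leading gene of each. Some cells below the division had no Col15a1 UMI, among them a control cell of 18524 UMIs and iPCKO cells of 28114 and 25350 UMIs. The name Col15a1-high thus describes the summed class, not each cell. There were 48 Col15a1-high and 40 Mgp-high cells in the control and 49 and 49 in the iPCKO library, so the Col15a1-high share was 54.5% (43.6 to 65.2) and 50.0% (39.7 to 60.3). Of these cells only 4 and 8 lay between 25 and 75%. Since the lists made the classes, what follows about their genes is a description of ranges on a score.

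**Figure D1:**
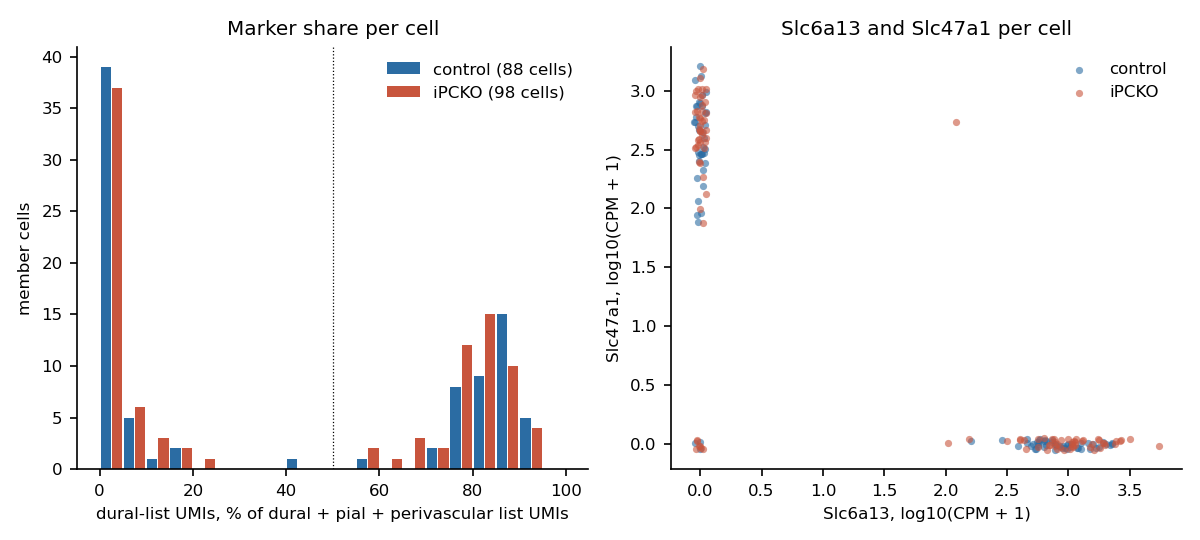
Left, number of fibroblasts by the percentage of their dural, pial and perivascular marker UMIs that came from the dural list (dotted line, 50%). Right, level of Slc47a1 against Slc6a13 in each fibroblast, as log10(CPM + 1), with a small random shift to separate points. Control cells are blue and iPCKO cells red. All but 12 cells lie below 25% or above 75%, and 1 cell had UMIs of both transporters.

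The classes also differed in Slc6a13, a gene of the selection rule, and in Slc47a1, which neither the rule nor the division used. Slc6a13 was present in all 48 and 49 Col15a1-high cells and in 0 and 1 Mgp-high cells. Slc47a1, which exports organic cations, showed the opposite distribution, with a UMI in 0 and 0 Col15a1-high cells and in 37 of 40 and 42 of 49 Mgp-high cells. Among all fibroblasts 1 iPCKO cell had both, and 3 and 7 had neither. After thinning to 4000 UMIs, for which 2 and 3 Col15a1-high and 2 and 2 Mgp-high cells were too shallow, Slc6a13 was found in 97.8 and 95.7% of the first class and in none of the second, and Slc47a1 in 71.1 and 76.6% of the second and in none of the first.

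Several matrix and transport genes were higher in Col15a1-high cells. Of the rule genes, Col1a1 had 10351 and 7748 CPM there and 5122 and 3941 CPM in Mgp-high cells, and Pdgfra had 669 and 984 CPM against 33.9 and 54.1 CPM. Lum was at 661 and 621 CPM against 15.4 and 17.6 CPM. Aldh1a2, an enzyme that makes retinoic acid, was detected in 91.7 and 100% of Col15a1-high and in 2.50 and 8.16% of Mgp-high cells. Lama1, a laminin chain of the pial basement membrane that took part in the division, was found in 85.4 and 81.6% against 2.50 and 0%. The organic anion transporter Slc22a6 had 657 and 633 CPM against 1.54 and 5.41 CPM, and the proline transporter Slc6a20a 1066 and 1268 CPM against 0 and 24.3 CPM. Slc6a20a was also at 577 and 454 CPM in pericyte-like cells. Col15a1, a collagen of basement membranes that also took part in the division, had 3356 and 2929 CPM against 1.54 and 3.38 CPM. A UMI of Col15a1 was also found in 32.0 and 32.4% of microglia-like cells, and one of the perivascular marker Abca9 in 59.2 and 48.5%, so that these 2 markers did not single out fibroblasts.

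Mgp-high cells combined the dural markers that defined them with some arachnoid markers. Mgp, an inhibitor of calcification, was in every one of them at 4967 and 4875 CPM, against 75.5 and 140 CPM in Col15a1-high cells. The alkaline phosphatase Alpl had 627 and 552 CPM against 5.87 and 0 CPM, and the transcription factor Six2 had 360 and 372 CPM against 21.8 and 29.6 CPM. Of the arachnoid list, Cldn11, which forms tight junctions, was detected in 97.5 and 95.9% of Mgp-high cells and Crabp2, a carrier of retinoic acid, in 90.0 and 85.7%. Cdh1, the gene of E-cadherin and a mark of the arachnoid barrier, was found in 55.0 and 79.6% of them and in 0 and 4.08% of Col15a1-high cells. Other arachnoid markers, Aldh1a2, Angptl2 and Ptgds, were higher in Col15a1-high cells, so the list as a whole belonged to neither class. Mgp-high cells had more UMIs, with medians of 16477 and 14928 against 11851 and 10877, and a higher mitochondrial share, with medians of 10.7 and 11.3% against 7.09 and 6.14%. A stricter mitochondrial limit of 10% therefore left 45 and 42 Col15a1-high but only 12 and 19 Mgp-high cells.

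**Figure D2:**
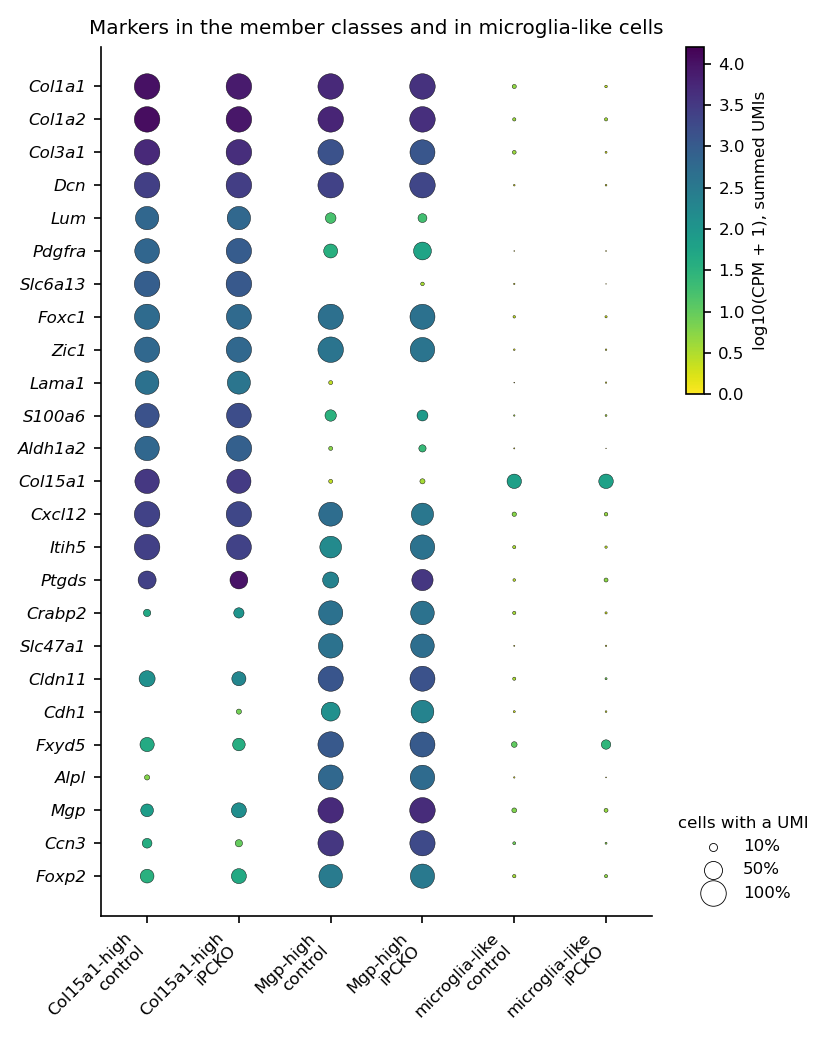
Rule genes and markers in the 2 fibroblast classes and in microglia-like cells of each cortex library. The area of a circle stands for the share of cells with at least 1 UMI and the colour for the level of the summed UMIs, log10(CPM + 1). Slc6a13, Lum, Lama1, Aldh1a2 and Col15a1 fill the Col15a1-high columns, Slc47a1, Alpl, Mgp and Ccn3 the Mgp-high columns, and Foxc1 and Zic1 both.

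Both classes shared Foxc1 and Zic1, which were found together in 85 of 88 and 90 of 98 fibroblasts. Foxc1 had 552 and 584 CPM in Col15a1-high and 470 and 437 CPM in Mgp-high cells, and Zic1 was at 502 and 494 CPM over all fibroblasts. Neither gene was particular to fibroblasts within the cortex. Pericyte-like cells had 445 and 378 CPM of Foxc1 and 710 and 651 CPM of Zic1, and endothelial-like cells 259 and 239 CPM of Foxc1. Within the Col15a1-high class, cells ranged between high Col15a1 and high Slc13a4, a sulfate transporter. Spearman's rho across cells between these genes was -0.67 over 48 control and -0.81 over 49 iPCKO cells. Slc13a4 went with Aldh1a2 (0.76 and 0.43) and with Ptgds (0.45 and 0.75). These cells share a library, and genes of a cell share its depth, so the coefficients are descriptions.

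Fibroblasts stood far apart from the other cells of the cortex in a set of further genes. The 20 genes with the highest ratio of fibroblasts to all other barcodes in the control library, among genes found in at least 50% of fibroblasts, were 70.6-fold to 969-fold higher there (median 158-fold), and 32.5-fold to 390-fold higher (median 139-fold) in the iPCKO library, which had no part in their choice. Collagens gave 6 of them, Col6a1, Col6a2, Col6a3, Col8a2, Col12a1 and Col15a1. Others were matrix genes (Mfap4, Efemp1, Itih2, Ccn3, Aebp1, Islr, Sulf1, Cpz), transcription regulators (Osr1, Six2, Eya2), Aldh1a2 and the growth factors Bmp6 and Igf2. Itih2, which encodes a chain that binds hyaluronan, had 224 and 331 CPM in fibroblasts against 0.214 and 1.65 CPM in all other barcodes. Igf2 was the most abundant of the 20 at 11448 and 8724 CPM, and the one least particular to fibroblasts, since pericyte-like cells had 2298 and 1418 CPM.

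The comparison of the iPCKO with the control library asks how fibroblasts differ when Nodal is deleted from mural cells. In all other barcodes together Nodal (chromosome 10, 61253587 to 61261117, GRCm39) went from 7.08 CPM in the control to 0.107 CPM in the iPCKO library, in the direction of the labels. No fibroblast of either library had a Nodal UMI. At 88 and 98 cells the intervals for detection reach 4.11 and 3.69%. Pdgfrb, whose promoter drives the Cre transgene, was in 50 of 88 and 58 of 98 fibroblasts at 91.5 and 154 CPM, mainly in Col15a1-high cells (171 and 323 CPM). A Pdgfrb UMI was also found in 1.01% of control but 68.6% of iPCKO microglia-like cells. The part of transgene transcripts in these counts was not tested.

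Most genes were close between the libraries. For each gene the log2 ratio of iPCKO over control is given with its exact interval, which does not include the spread between cells or mice. The median over 10441 genes with at least 20 UMIs was -0.00. Of these genes 213 (2.04%) were at least 2-fold higher in iPCKO fibroblasts with an interval that leaves out 0, and 210 (2.01%) at least 2-fold lower. In the sum of the other barcodes, 9 and 4 of them were at least 2-fold in the same direction, with no interval required. This sum pools several cell types, and the share of all genes with such a ratio was not counted. No reading is therefore placed on these counts. Of the 213 and 210 genes, 15 and 28 had over 50% of a library's UMIs in a single cell. Of the genes past 2-fold with at least 20 UMIs in each class, 22 of 54 higher and 15 of 50 lower were at least 2-fold in both classes. The share over all genes was not counted here either. Genes of the selection rule moved little. Col1a1 and Col1a2 had log2 ratios of -0.44 (-0.49 to -0.40) and -0.44 (-0.48 to -0.40), Col3a1 one of -0.32, Dcn of -0.08, Lum of -0.21, Slc6a13 of 0.14 and Pdgfra of 0.44.

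Ptgds (chromosome 2, 25352795 to 25362601), the synthase that makes prostaglandin D2 and a carrier of lipophilic molecules secreted by the arachnoid, showed the largest difference in UMIs. It had 1602 UMIs in 40 of 88 control cells and 8031 UMIs in 58 of 98 iPCKO cells, 1286 (1224 to 1350) and 6117 (5984 to 6252) CPM, a log2 ratio of 2.25 (2.17 to 2.33). Few cells carried most of this transcript. In the control library 1 cell held 43.3% of the UMIs, and the ratio without the top cell of each library was 2.89. The ratio was 1.96 (1.88 to 2.05) in Col15a1-high and 3.94 in Mgp-high cells, where the level went from 226 to 3495 CPM. In this class the 4 cells with most Ptgds held 78.9% of the control and 82.5% of the iPCKO UMIs, and without them the level went from 54.7 to 673 CPM. Without the 3 control and 8 iPCKO cells near the division it went from 159 to 1998 CPM (3.65, 3.36 to 3.97). The share of Mgp-high cells with a UMI went from 40.0 to 69.4%, and from 23.7 to 48.9% after thinning. Barcodes without a cell also held more Ptgds, 144 and 501 CPM, and microglia-like cells had 1.86 and 4.47 CPM. Most other markers of the arachnoid list were higher in the iPCKO library, but not all. Slc47a1 went from 215 to 283 CPM, Crabp2 from 248 to 279, Wnt6 from 11.2 to 14.5 and Aldh1a2 from 312 to 379 CPM. Dpp4 went from 36.1 to 112 CPM (from 18.5 to 130 CPM in Mgp-high cells), Cdh1 from 66.6 to 120 CPM and Cldn11 from 701 to 848 CPM, whereas Angptl2 went from 104 to 60.9 CPM and Tjp1 from 149 to 133 CPM. The part of these markers in the Ptgds difference was not tested.

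Other genes higher in iPCKO fibroblasts were mostly confined to some of the cells. Col8a1 (chromosome 16, 57444621 to 57575100), a short-chain collagen, went from 106 to 408 CPM (log2 ratio 1.94, 1.67 to 2.23), from 20 to 42 cells, nearly all of it in Mgp-high cells. Igfbp3, a binding protein of insulin-like growth factors, had 12 UMIs in 6 control cells and 130 UMIs in 11 iPCKO cells, a log2 ratio of 3.31 (2.51 to 4.35). In each library 1 cell held much of this, 50.0% of the control and 45.4% of the iPCKO UMIs. Endothelial-like cells had 114 and 182 CPM of Igfbp3, and barcodes without a cell 57.7 and 74.8 CPM, beside 9.63 and 99.0 CPM in fibroblasts. The part of free RNA in its ratio was not tested. Ppp1r1a, an inhibitor of protein phosphatase 1, went from 16 to 132 UMIs and from 9 to 29 cells, with ratios of 2.93 in Col15a1-high and 3.22 in Mgp-high cells. In Mgp-high cells Msln, the gene of mesothelin, went from 18 UMIs in 5 cells to 74 in 17, and Dapl1 from 14 in 6 cells to 109 in 11. Neither had a UMI in Col15a1-high cells. Plaat3, Sphk1, Cd109, Atpaf1, Sp140 and Crispld2 completed the 12 highest ratios at 48 to 70 iPCKO UMIs each.

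Igf1 (chromosome 10, 87693642 to 87772904), a growth factor, had the lowest ratio among genes with at least 50 UMIs. It fell short of the control in both classes, with 127 UMIs in 27 control cells and 18 in 10 iPCKO cells, 102 (85.0 to 121) and 13.7 (8.12 to 21.7) CPM. The log2 ratio was -2.86 (-3.69 to -2.18), and -2.06 in Col15a1-high and -4.69 in Mgp-high cells. In microglia-like cells Igf1 was also lower, at 30.4 and 10.9 CPM, but not in the sum of all other barcodes, at 17.2 and 18.5 CPM. Rpgrip1 was also lower in both classes, with 103 and 15 UMIs, whereas Mal2, Nell2, Clec11a and Mia were lower mainly in Mgp-high cells. Clec11a, a growth factor of skeletal progenitors, had 150 and 44.9 CPM (-1.73, -2.19 to -1.31), and Mal2, which encodes a membrane traffic protein, 69.0 and 11.4 CPM (-2.56, -3.49 to -1.79). Ndnf, a secreted neurotrophic factor, was lower in Col15a1-high cells, at 441 and 155 CPM (-1.50, -1.87 to -1.15). Csf1r, the receptor of colony-stimulating factor 1 and a microglial gene, was also among the 12 lowest, but 77.5% of its control UMIs lay in 1 cell. Grm3, Deptor, Ptger1 and Ccl19-ps2 completed the 12 lowest at 12 to 22 iPCKO UMIs each. Grm3 had 42.5 and 10.3 CPM, beside 596 and 649 CPM in astrocyte-like cells and 207 and 184 CPM in barcodes without a cell. The part of free RNA in the Grm3 ratio was not tested. Ccl19-ps2 was also lower in pericyte-like (16.5 and 7.51 CPM), smooth muscle-like (22.8 and 12.2 CPM) and endothelial-like cells (23.1 and 15.9 CPM). Barcodes without a cell held 8.29 and 9.05 CPM of it. Of the 24 genes with the highest and lowest ratios, the 23 with a value after the top cell of each library was left out were all past 2-fold in the same direction, although the interval of Atpaf1 (1.10, -0.04 to 2.46) then included 0.

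**Figure D3:**
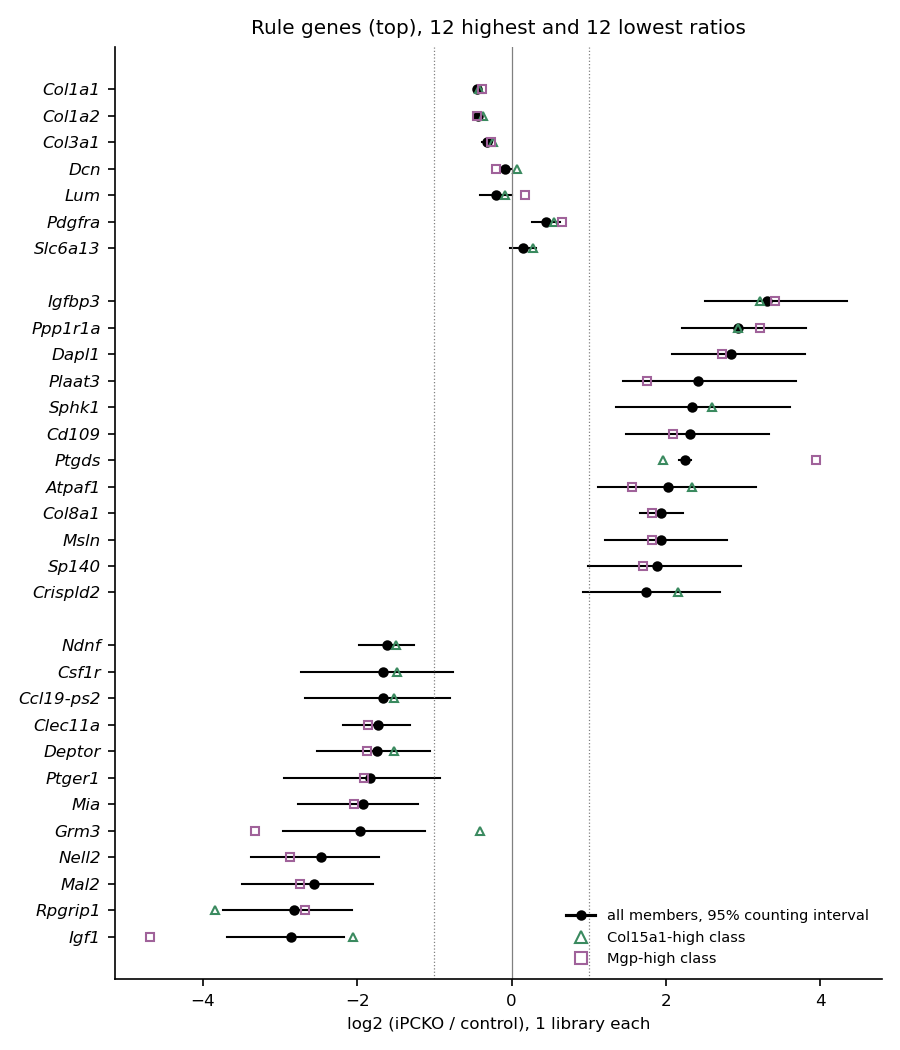
Log2 ratio of iPCKO over control fibroblasts for the 7 rule genes and the 12 highest and 12 lowest genes with at least 50 UMIs. Filled circles are all fibroblasts with 95% counting intervals, triangles Col15a1-high and squares Mgp-high cells where a class had at least 20 UMIs, and dotted lines mark 2-fold. Rule genes lie within 2-fold, and Ptgds has a narrow interval at 2.25 with the Mgp-high value at 3.94.

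Most collagen and all measured basement membrane genes had ratios below 0. Of 25 collagens with at least 20 UMIs, 20 were below 0 and the median was -0.32, beside -0.00 over all genes. Col1a1, Col1a2 and Col3a1, which chose the cells, are among them, and without them 17 of 22 were below 0 with a median of -0.27. Under the mitochondrial limit of 10% these medians were -0.16 and -0.15. None was past 2-fold lower and 1, Col8a1, was past 2-fold higher, beside 2.01% lower and 2.04% higher over all genes. For collagens with at least 20 UMIs in a class, the median was -0.32 over 22 genes in Col15a1-high and -0.17 over 19 in Mgp-high cells. Col4a1, of the basement membrane, had 3015 and 2037 CPM (-0.57, -0.64 to -0.49), and Col15a1 1608 and 1281 CPM (-0.33). All 11 laminin and basement membrane genes were below 0 (median -0.26), from Lamc1 at -0.07 to Lamc3 at -1.06 (-1.41 to -0.73), the only one past 2-fold, beside the same 2.01% lower over all genes. The interval lay below 0 in 6 of the 11, beside 818 of 10441 over all genes. With at least 20 UMIs in a class, their median was -0.21 over 11 genes in Col15a1-high and -0.18 over 8 in Mgp-high cells. Lamc3 lay almost wholly in Col15a1-high cells, at 369 and 192 CPM. Genes of collagen processing had a median of -0.09, with the collagen chaperone Serpinh1 at -0.49. Serpinh1 was also lower in pericyte-like (1126 and 898 CPM), smooth muscle-like (762 and 578 CPM), endothelial-like (727 and 617 CPM) and astrocyte-like cells (278 and 197 CPM). In the other barcodes of the libraries the median was -0.04 for collagens, -0.16 for laminin and basement membrane genes and -0.13 for collagen processing genes.

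Other matrix genes went both ways. The median of the 27 elastic fibre and other matrix genes was 0.08. Mfap4 (chromosome 11, 61376212 to 61379727), an elastic fibre protein, went from 682 to 303 CPM (log2 ratio -1.17), from 971 to 609 CPM in Col15a1-high (-0.67) and from 416 to 66.2 CPM in Mgp-high cells. In all other barcodes it was at 3.63 and 1.37 CPM. Ccn3 (chromosome 15, 54609012 to 54620154), a matricellular protein and a dural marker, went from 1781 to 1014 CPM (-0.81, -0.91 to -0.71), with 0.34 under the mitochondrial limit of 10%. Thbs1 had a ratio of -0.72 and Eln, the gene of elastin, one of 0.42, which was 1.29 in Mgp-high and -0.23 in Col15a1-high cells. Eln was also higher in smooth muscle-like (3242 and 4058 CPM) and endothelial-like cells (171 and 269 CPM) and in barcodes without a cell (259 and 343 CPM). Of the proteoglycans, Omd was past 2-fold higher with 27 and 58 UMIs, and of the proteases and inhibitors Serpine2, which inhibits thrombin, was past 2-fold lower with 404 and 184 CPM (-1.13, -1.36 to -0.91), beside 2.04% higher and 2.01% lower over all genes.

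Meningeal transporters and retinoid genes had more ratios above than below 0. Past 2-fold were 3 of 30 transporters (2 higher, 1 lower) and 3 of 16 retinoid genes (1 higher, 2 lower), beside 2.04% higher and 2.01% lower over all genes. Of the 30 transporters 21 were above 0 (median 0.34, and 0.35 without Slc6a13), and Slc22a8, an organic anion transporter, was past 2-fold higher with 131 and 278 CPM (1.08, 0.82 to 1.36), at 1.11 in Col15a1-high and 1.96 in Mgp-high cells. Barcodes without a cell held 387 and 329 CPM of Slc22a8, which endothelium also expresses. Slc6a12 was also past 2-fold higher with 5 and 19 UMIs, and Slco1a4, an endothelial transporter, past 2-fold lower with 18 and 3 UMIs. The cystine transporter Slc7a11 had 492 and 302 CPM (-0.70, -0.89 to -0.52). In the other barcodes the median of these transporters was -0.16. Of the 16 retinoid genes 11 were above 0 (median 0.32). Stra6 (chromosome 9, 57970967 to 58063543), the cell's receptor for retinol and its binding protein, went from 272 to 663 CPM (1.28, 1.10 to 1.47) and from 48 to 76 cells, with 0.35 in Col15a1-high and 1.68 in Mgp-high cells. Aldh1a2 had a ratio of 0.28. Cyp26b1, which degrades retinoic acid, had 38 control UMIs, of which 94.7% lay in 1 cell, and none in the iPCKO library, and Rbp4 was past 2-fold lower with 25 and 8 UMIs.

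Counts of signalling genes past 2-fold are read beside 2.04% higher and 2.01% lower over all genes. None of 25 genes of the Nodal, activin and TGF-beta pathway was past 2-fold, and 18 were above 0 (median 0.16). The follistatin-like gene Fstl1 had 2081 and 2195 CPM (0.08), and the receptor Tgfbr2 had 181 and 203 CPM (0.16, -0.10 to 0.42). Of 18 BMP pathway genes (median 0.13) 1 was past 2-fold lower and none higher. The ligand Bmp7 was at 326 and 476 CPM (0.55, 0.36 to 0.73), whereas Bmp4 was at 259 and 256 CPM (-0.02). Bmp7 was also higher in astrocyte-like cells, at 56.7 and 82.4 CPM. Of 34 growth factors and chemokines 5 were past 2-fold, and 25 were below 0 (median -0.23), among them Ptn, which encodes pleiotrophin, at 4766 and 3762 CPM (-0.34), and Mdk at 893 and 580 CPM (-0.62). Both had like ratios in the sum of the other barcodes, -0.31 and -0.57, but the mix of cell types there differed between the libraries. Astrocyte-like cells, for 1, were 663 of 3015 and 775 of 4750 barcodes. Ptn was at 5276 and 5772 CPM in astrocyte-like, 4114.5 and 3762.8 CPM in pericyte-like and 420 and 288 CPM in endothelial-like cells. Past 2-fold among growth factors were Ptgds, Igfbp3 and Fgf1 (4 and 24 UMIs) upward and Igf1 and Fgf2 (50 and 25 UMIs) downward. Wnt pathway genes had a median of -0.03 over 17 genes, with the inhibitor Dkk2 past 2-fold lower. Growth factor receptors had one of 0.15 over 17, with Kdr higher and Fgfr3 lower. Kdr had 6.42 and 21.3 CPM in fibroblasts, beside 1887 and 2463 CPM in endothelial-like cells and 684 and 916 in barcodes without a cell. Fgfr3 had 20.9 and 7.62 CPM, beside 1117 and 1110 CPM in astrocyte-like cells and 189 and 139 in barcodes without a cell. The part of free RNA in these 2 genes was not tested.

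Inflammatory genes had a median of -0.28 over 17 genes, with 4 past 2-fold lower and 1 higher, beside 2.01% lower and 2.04% higher over all genes. Vcam1, an adhesion molecule for leukocytes, was at 142 and 56.4 CPM (-1.33, -1.75 to -0.93), almost all in Col15a1-high cells. The alarmin Il33 had 61 and 25 UMIs (-1.35) and the chemokine Ccl19 36 and 8 (-2.18), Cx3cl1 19 and 8, and Ccl11 5 and 18. Ccl19 was also lower in pericyte-like (16.6 and 8.34 CPM), smooth muscle-like (26.2 and 5.13 CPM) and endothelial-like cells (18.9 and 8.91 CPM). Barcodes without a cell held 4.63 and 5.15 CPM of it. In the other barcodes the median of the list was 0.23. Interferon and antigen presentation genes had a median of -0.04 in fibroblasts and of 0.31 in the other barcodes. Complement genes had a median of 0.58 over 9 genes, with Cd55 and C1s1 past 2-fold higher, but this held for the Mgp-high class (0.65) and not for the Col15a1-high class (-0.59), and the median was 0.19 under the mitochondrial limit of 10%.

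Immediate-early genes (median 0.12 over 24) and heat shock genes (0.03 over 14), which dissociation is known to induce, held no gene past 2-fold, beside 2.04% higher and 2.01% lower over all genes. The interval lay above 0 in 11 of the immediate-early genes and below 0 in none, beside 787 above and 818 below of 10441 over all genes. In the other barcodes of the libraries the median was 0.14 for immediate-early genes and 0.0026 for heat shock genes. Fos was at 3920 and 4248 CPM and Hspa8 at 724 and 794 CPM. The 26 cell cycle genes had a median of 0.17, of 1.14 in Col15a1-high and -0.68 in Mgp-high cells. Cdkn1a, an inhibitor of cyclin-dependent kinases, was past 2-fold higher with 103 and 232 CPM (1.17, 0.87 to 1.49), in 29 and 56 cells. It was also higher in pericyte-like (85.1 and 203 CPM), smooth muscle-like (318 and 388 CPM) and endothelial-like cells (476 and 589 CPM). In microglia-like cells it was at 263 and 295 CPM, and in astrocyte-like cells at 31.2 and 19.5 CPM. Mcm3 and Hells, of DNA replication, had 5 and 26 and 7 and 21 UMIs. Cells with at least 5 UMIs over 8 proliferation genes numbered 2 of 88 (2.27%, 0.276 to 7.97) and 6 of 98 (6.12%, 2.28 to 12.9). Of these cells 1 of 48 and 5 of 49 (2.08 and 10.2%) were Col15a1-high, and 1 of 40 and 1 of 49 (2.50 and 2.04%) Mgp-high. Such cells were few and each genotype had 1 library, so these differences were not tested. Positional transcription factors had a median of 0.01 over 32 genes, with Zic1 at -0.03 and Foxc1 at -0.02, and 1, Ebf1 (28 and 8 UMIs), past 2-fold lower. Ebf1 had 22.5 and 6.09 CPM in fibroblasts, beside 563 and 579 CPM in pericyte-like cells and 555 and 559 CPM in barcodes without a cell. The part of free RNA in the Ebf1 ratio was not tested. Glucocorticoid response genes were at 0.21 over 12, imprinted growth genes at -0.13 over 15 and myofibroblast genes at -0.10 over 12.

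**Figure D4:**
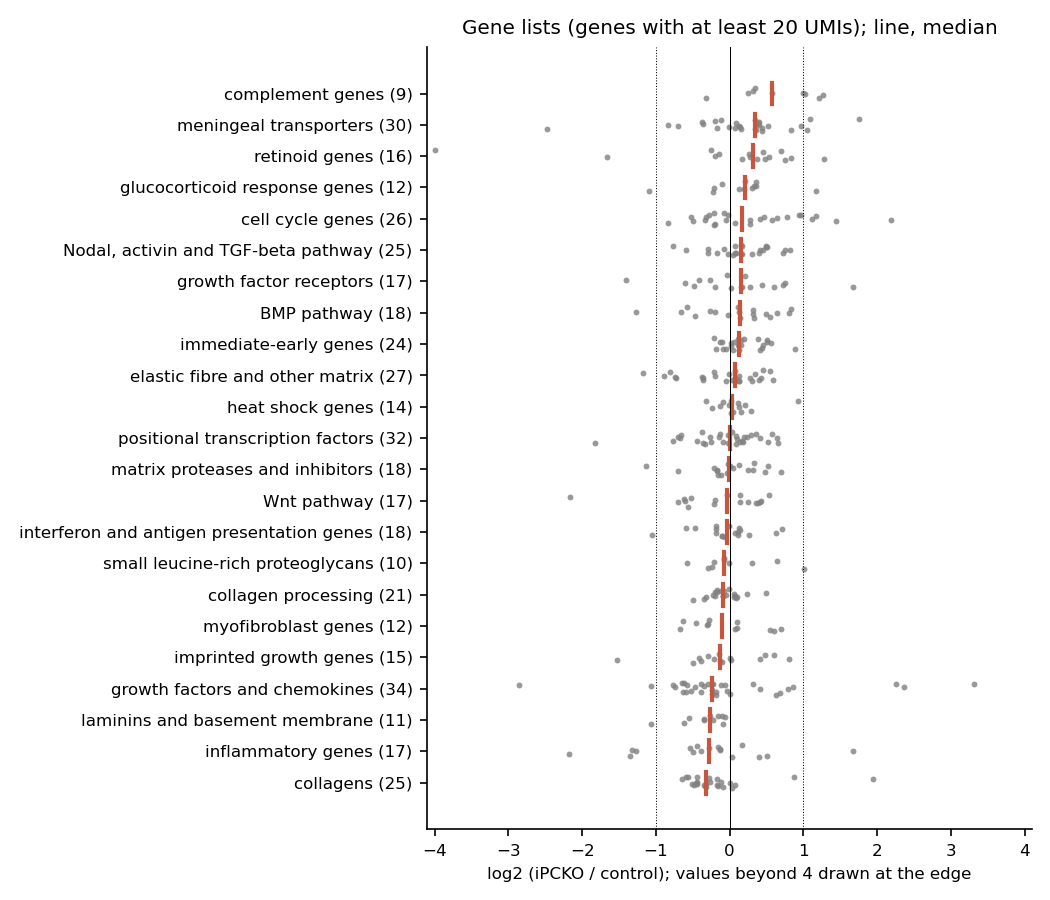
Log2 ratio of iPCKO over control fibroblasts for the genes with at least 20 UMIs of each list (grey points, number in parentheses) with the list's median (red line) and 2-fold limits (dotted). Cyp26b1, with no iPCKO UMI, is drawn at the left edge. List medians lie between -0.32 for collagens and 0.58 for complement genes, all within 2-fold.

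To place the cells among fibroblasts of the series, cortical fibroblasts were compared with fibroblast-like cells of the 4 lung libraries, chosen by the same rule without Slc6a13. The lung libraries held 2062 (Bdnf control), 2709 (Bdnf iPCKO), 517 (Hgf control) and 306 (Hgf iPCKO) of these cells. Tissue, age (P12 and P21), dissociation and depletion of CD45+ cells changed together and cannot be told apart, and genotypes were treated as libraries of a tissue. Levels here are CPM scaled by TMM factors. With UMIs summed per library, edgeR's quasi-likelihood test with Benjamini-Hochberg adjustment called 1318 of 12940 genes (10.2%) at least 2-fold higher in cortex at an adjusted p under 0.05 and 1817 (14%) at least 2-fold lower. Without the control cortex library the counts were 737 and 706, and without the iPCKO cortex library 695 and 708, each with the remaining cortex library assumed to vary like the lung libraries.

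Of 31 meningeal transporters 22 were higher in cortex and 3 lower, beside 10.2% higher and 14% lower over all genes tested. Slc6a20a was at 475 and 531 CPM in the cortex libraries and at most 0.13 CPM in the lung libraries, where it had 3 UMIs in all (edgeR adjusted p = 5.22e-07). Slc22a6 had 293 and 262 CPM in cortex and no lung UMI, at least 3190-fold higher against a floor of 3 lung UMIs over the group (edgeR adjusted p = 2.98e-05). Slc47a1 was at 200 and 265 CPM against 0.88 to 3.41 CPM (log2 ratio 7.39, SE 0.40, edgeR adjusted p = 1.57e-05). All 4 values of these genes in lung lay below both values in cortex. Igf2 was also higher in cortex, with 10650 and 8162 CPM against 154 ± 85.8 CPM (SD, n = 4 libraries) in lung, with a log2 ratio of 5.93 (SE 0.48, edgeR adjusted p = 0.000102).

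Of 48 positional transcription factors tested, 20 were higher and 17 lower in cortex, beside 10.2% higher and 14% lower over all genes tested. Higher were factors of the head and meninges such as Zic1, Zic2, Zic4, Foxc1, Foxc2, Foxd1, Tbx18, Six2, Alx1, Alx4, Msx1, Msx2 and Twist1. Lower were those of the trunk and lung, Tbx2, Tbx3, Tbx4, Tbx5, Tcf21, Foxf1, Meox2, Hoxa2, Hoxa4, Hoxa5 and 5 Hoxb genes. Ebf1 and Ebf2 were lower as well, but Ebf1 was at 563 and 579 CPM in cortical pericyte-like cells (without TMM scaling). Zic1 had 467 and 462 CPM in cortex and at most 0.13 CPM in lung, from 3 UMIs in all (edgeR adjusted p = 5.22e-07). Foxc1 was at 473 and 469 CPM in cortex and 11.6 to 22.0 CPM in lung. Tcf21, a factor of lung fibroblasts, was listed at 0 in both cortex libraries and at 261 to 407 CPM in lung, at least 324-fold lower in cortex against a floor of 3 UMIs over the group.

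**Figure D5:**
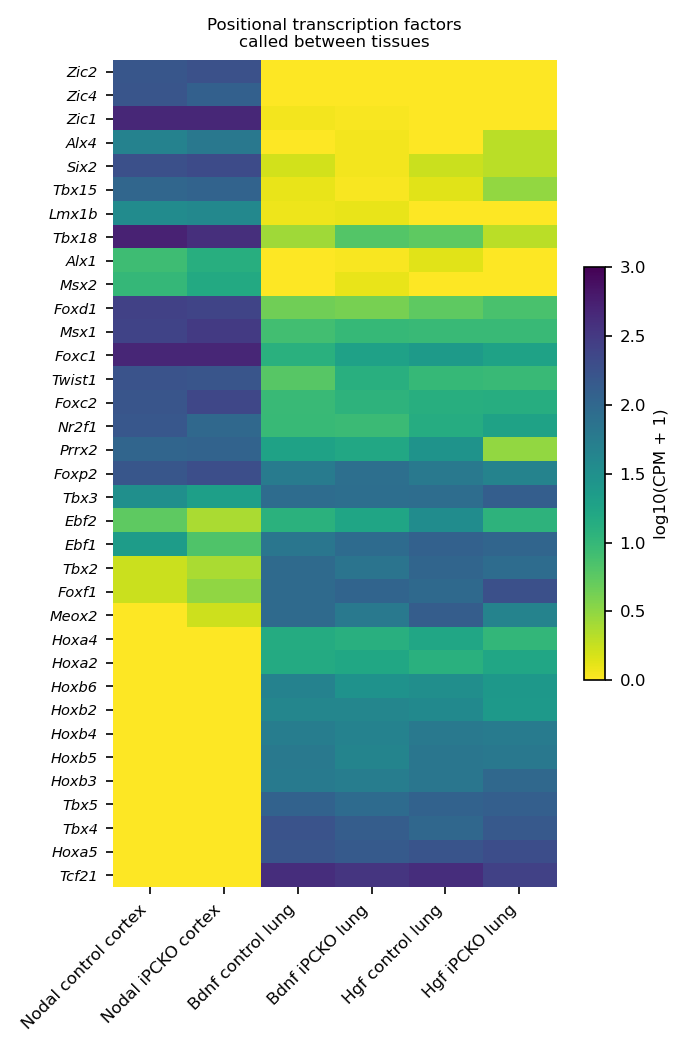
Level, log10(CPM + 1), of positional transcription factors called between cortical and lung fibroblast-like cells, in each of the 6 libraries. Factors from Zic2 to Foxp2 are higher in the 2 cortex columns, and those from Tbx3 to Tcf21 in the 4 lung columns, with Hox genes near 0 in cortex.

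Counts of the other lists are read beside the same 10.2% higher and 14% lower over all genes tested. Of 12 complement genes 8 were lower in cortex, among them C3, at 0 in both cortex libraries and 370 to 759 CPM in lung. Elastic fibre and other matrix genes were lower in 12 of 30 and higher in 5. Eln was at 358 and 482 CPM in cortex and 7221 ± 1204 CPM (SD, n = 4 libraries) in lung. Of 22 collagens 12 were higher, among them Col11a1 at 201 and 148 CPM against 1.04 to 19.6 CPM, and 4 lower (Col5a1, Col5a2, Col6a3, Col14a1). Growth factors were higher in 9 of 44 and lower in 19, which included Fgf10 with 0 UMIs in cortex and 76.5 to 91.7 CPM in lung. Cell cycle genes were higher in 13 of 26 and lower in none. Only 2 of 88 control and 6 of 98 iPCKO cortical cells had at least 5 UMIs over 8 proliferation genes. The highest of these cells held 119 and 108 such UMIs. The lowest genes in cortex also included surfactant genes of alveolar epithelium, such as Sftpc, which barcodes without a cell held at 7078 to 15937 CPM in the lung libraries, above the 2547 to 7302 CPM in lung fibroblast-like cells (both without TMM scaling). The part of free RNA in these values was not tested.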

How the data were processed

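Cells of the cerebral cortex at P12 and of the lung at P21 were profiled on the BD Rhapsody platform, which captures 3′ ends, in 6 libraries, each cortex library from 2 pooled mice. The authors mapped reads with STAR 2.7.10a to GRCm39 and divided multi-mapping reads among genes by expectation maximization, and the methods and the data statement name different Gencode releases. The deposited files hold expected counts (estimated counts of UMIs, of which 9.08 and 9.21% of entries were fractional in the cortex libraries), without normalization or cell filter. The cortex libraries held 33889545 and 54791946 UMIs. Symbols occurring more than once (147) were left out.

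UMIs of the chosen cells were summed per library. CPM carry exact Poisson, shares exact Clopper-Pearson and log2 ratios (offset 0.5 UMI) conditional exact 95% intervals, for counting error only. With 1 library per genotype no test was made between genotypes, and genes past 2-fold were counted in its place. Counts were rounded for exact intervals, thinning (4000 UMIs) and edgeR. Cortex and lung were compared with edgeR 4.0.16 (TMM, filterByExpr, robust quasi-likelihood test), and CPM in that comparison are TMM-scaled. The test was tried on simulated data of 12401 genes, where it recovered 76% of 100 genes with a log2 change of 2 and 98% of 100 with a log2 change of 3. DESeq2 1.42.0 was an alternative. Doublets were scored with Scrublet in scanpy 1.11.5 (R 4.3.3, Python 3.11.15, scipy 1.17.1). It called 0.8 and 1.01% of the cortex barcodes doublets, and these were kept.

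Named genes were the rule genes, the 20 genes with the highest ratio of control fibroblasts to other control barcodes, the 12 highest and 12 lowest ratios with at least 50 UMIs, up to 8 of the most abundant genes of each of 23 lists with any past 2-fold, the 12 largest and 12 smallest differences from lung and the list members called there, besides class markers. The cells, lists and rules were chosen with earlier results of these data known. Fits to single classes, without top cells and without cells with markers of other types were added after the data were seen. A few genes are not reported here.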

Additional observations from a re-analysis of the deposited data

Results flagged for a closer look

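For 9 named genes the log2 ratio of iPCKO over control had opposite signs in the 2 fibroblast classes, with an interval that leaves out 0 and at least 20 UMIs in each class and ratios at least 1 apart. The difference between the classes was not tested, since each class has 1 library per genotype. Igf2 was lower in Col15a1-high cells (-0.69, from 19891 to 12348 CPM) and higher in Mgp-high cells (0.68, from 3691 to 5915 CPM), so that its ratio of -0.39 over all fibroblasts describes neither. H19, the RNA gene next to Igf2 on chromosome 7, was at -6.97 in Col15a1-high cells, from 195 UMIs to 1, and at 0.95 in Mgp-high cells, with 43.0% of the control UMIs in 1 cell. Of matrix genes, Aebp1 was at 1.19 in Col15a1-high and -0.74 in Mgp-high cells, Podn at 1.71 and -0.81, and Prelp at -0.33 and 1.59. Aldh1a1, of retinoic acid synthesis, was at -0.19 and 1.11, and the kinase gene Sgk1 at 1.53 and -0.89. The proliferation genes Pcna and Top2a were at 1.20 and 1.34 in Col15a1-high cells and at -0.60 and -2.08 in Mgp-high cells, with 64.3% of the control Top2a UMIs in 1 cell.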

How the results depend on the processing

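The share of fibroblasts was 2.34% in the control and 1.49% in the iPCKO library with at most 10% mitochondrial UMIs, 2.26 and 1.64% without any UMI of the 6 excluding genes, and 2.19 and 1.56% with at least 5 markers. Genes past 2-fold numbered 81 higher and 78 lower with at least 50 UMIs per gene, 333 and 329 without a filter on low counts, and 70 and 50 with both classes weighted equally, a setting chosen after seeing the data that tested fewer genes. Of the 24 highest and lowest genes, 13 kept an interval on the same side of 0 in Col15a1-high cells alone and 12 with equal class weights. Over 236 named genes and 3159 values under alternatives, 2766 stayed within the interval as reported, 391 left it, 2 had a gene past 2-fold change sign, and 145 more fell under 20 UMIs. The 2 were Csf1r, at 0.40 without Scrublet doublets, and Cd55, at -0.64 in Col15a1-high cells. Of all named genes, past 2-fold or not, 12 changed sign in 15 values with both intervals leaving out 0, among them Ccn3 (0.34), Col6a2 (0.24), Igfbp5 (0.26) and Glul (-0.14) with at most 10% mitochondrial UMIs and Igf2 (0.68), Prelp (1.59), Aldh1a1 (1.11) and Sparc (0.14) in Mgp-high cells alone. Over the 23 lists, 335 of 349 medians under alternatives stayed within the interval as reported, 12 left it and 2 reversed. Medians of lists moved, among others, for collagens (-0.16) and complement genes (0.19) with at most 10% mitochondrial UMIs and for transporters (0.46) with at least 5 markers. In Col15a1-high cells alone, also chosen after seeing the data, they moved for the Nodal, activin and TGF-beta list (0.0045) and reversed for immediate-early genes (-0.0027) and complement genes (-0.59). The cell cycle median left its interval (-0.21 to 0.65) in both classes, at 1.14 in Col15a1-high and -0.68 in Mgp-high cells. The retinoid median left its interval (-0.20 to 0.70) in Mgp-high cells, at 0.78. Median-of-ratios scaling shifted all genes by 0.0085. Between cortex and lung, leaving out 1 library gave 695 to 1507 genes higher and 706 to 2049 lower, with the lowest counts when the control cortex library (737 and 706) or the iPCKO cortex library (695 and 708) was left out. DESeq2 called 1398 and 1865 genes. The causes of these shifts were not tested. No paired analysis was possible because the labels carry no replicate numbers and each genotype has 1 library. Counting depth limits genes under 20 UMIs and shares from 88 and 98 cells.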
